A study of Bos taurus with 55 samples.

Results

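Linseed oil was fed to 7 of the 28 Holstein-Friesian cows of the study, and mammary gland RNA of the same animals was measured again after they had moved to a diet without added oil. These cows were chosen by the diet written in the labels for period I, and they contributed 13 of the 55 arrays: 7 from the linseed period and 6 from the later control period, because cow 28 had no array in period II. The other 21 cows received rapeseed oil, soybean oil or an equal mixture of the 3 oils in period I. The comparison asked which genes differed in the gland of a cow between linseed oil and the later diet, and it rests on 6 complete pairs, from cows 5, 7, 8, 15, 21 and 25.

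In the linseed period the cows received 2.7% linseed oil, a source of alpha-linolenic acid (ALA), for 23 days, and reached 176 ± 32.8 days in milk (mean ± SD). In the later period they received the control diet, with 0% added oil, for 28 days and reached 204 ± 32.8 days in milk. In both periods the cows grazed ryegrass and white clover by day and had the mixed ration indoors at night. Every cow had the oil first, so the effects of linseed feeding, of period order and of advancing lactation cannot be told apart. No group of cows stayed on the control diet through both periods.

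The lactating mammary gland makes milk fat in its secretory epithelial cells, partly from fatty acids built in the cell from acetate and partly from fatty acids taken up from blood. Linseed oil is rich in ALA, much of which rumen microbes hydrogenate before it reaches the gland. Some intermediates of the rumen hydrogenation of unsaturated fatty acids, not all of them from ALA, are known to lower milk fat synthesis in cows. Milk fat leaves the cell as droplets wrapped in membrane, with butyrophilin (BTN1A1), xanthine dehydrogenase (XDH) and perilipin 2 (PLIN2) at the droplet surface.

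The arrays were of lactating gland: the 7 markers of milk-making alveolar cells, among them the casein genes and LALBA, the lactose synthase subunit, had a mean level of 13.3 in the linseed period and 12.9 in the control period on the log2 intensity scale. The median of all probe sets was 3.34 on that scale. Median intensities of the 13 arrays lay between 9.60 and 12.1. The mean correlation with all other arrays was between 0.965 and 0.975 for 10 of them. The other 3 stood apart: both arrays of cow 5 (0.951 in period I, 0.911 in period II) and the period II array of cow 15 (0.918). Counts of calls, and many but not all of the changes, are therefore given with and without the pairs of cows 5 and 15. The array names carry 2 prefixes, whose meaning the labels do not give. Of the linseed arrays 6 had the first prefix and that of cow 7 the second, while all 6 control arrays had the second, so only cow 7 was compared within a prefix. The bacterial spike-in probe set BioB-3 was higher in period I in 6 of 6 cows, and its part in the results was not tested.

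Between linseed and the later control diet, 138 of 10680 probe sets (1.29%) passed an adjusted p of 0.05, 43 higher (0.403%) and 95 lower (0.89%) in the linseed period. Of these, 88 had a gene symbol, in 30 genes that rose and 58 that fell. The words rose and fell compare the linseed period with the control period, although the oil came first. Changes are log2 intensity on linseed minus that on the later control diet, with the fit's standard error, and the adjusted p comes from limma over all probe sets. The median change was 0.58 among the rises and -0.74 among the falls, against -0.0066 over all probe sets, and 91 calls were larger than 1.5-fold, of which 21 rose and 70 fell. Centring the arrays on their medians again gave 138 calls, but 89 of them were higher and 49 lower, and the median over all probe sets moved to 0.088. At an unadjusted p under 0.05 there were 1974 probe sets (18.5%), 929 of them higher (8.7%) and 1045 lower (9.78%).

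All 138 calls moved the same way in at least 5 of the 6 cows and 113 in 6 of 6, where 1107 of all probe sets (10.4%) did so. The linseed and control levels did not overlap for 37 of the calls, against 80 (0.749%) of all probe sets tested. The calls were chosen by their changes in these same cows. Their agreement in sign and lack of overlap therefore follow in part from that choice. The fit that gave these calls drew its estimate of the spread from all 27 cows with both arrays. Fitted on the 6 linseed pairs alone, limma called 0 probe sets, with 1742 at an unadjusted p under 0.05. Without the pairs of cows 5 and 15, limma called 22 (7 higher and 15 lower), of which 18 were among the 138. All 138 kept their sign there and 137 had an unadjusted p under 0.05. The cows left in that fit had also served to choose the 138 calls. These counts therefore follow in large part from that choice and do not test the calls independently. Of the 25 called genes that the rule for naming picked, 6 were also called without cows 5 and 15. They were ARPC3, NDUFB4, PAG18, LGALS4, NHERF2 and C1QTNF5. Leaving out 1 cow at a time gave 21 calls without cow 15, 26 without cow 7, 41 without cow 8, 48 without cow 25, 78 without cow 5 and 240 without cow 21. With the array-name prefix added beside the cow, 172 were called, of which 42 were among the 138. Of the linseed cows only cow 7 had both arrays under 1 prefix, so that fit cannot separate prefix from period well.

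ARPC3 showed the largest rise. It encodes a subunit of the Arp2/3 complex, which starts new branches on actin filaments. Its log2 level was 8.60 in cow 5, 7.56 in cow 7, 7.78 in cow 8, 8.02 in cow 15, 8.07 in cow 21 and 7.65 in cow 25 in the linseed period, and 7.04 in cow 28. In the control period it was 5.92, 5.96, 6.07, 7.48, 6.01 and 5.38 in the same order of cows. The 6 linseed levels all lay above the 6 control levels, although the control level of cow 15 came close, and cow 28 lay below it. The change was 1.81 ± 0.24 (3.51-fold, adjusted p = 6.50e-04, higher in 6 of 6 cows). It was 1.91 without cows 5 and 15 (adjusted p = 0.00200) and 1.60 in cow 7, the cow compared within a prefix. None of the other 15 measured genes of actin nucleation passed the test, including the complex subunits ARPC2 (0.19), ARPC5 (-0.21), ARPC1B (-0.18) and ACTR3 (-0.06).

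Genes of mitochondrial energy metabolism were among the rises. NDUFB4, an accessory subunit of respiratory complex I, had linseed levels of 8.70 to 9.10 and control levels of 8.01 to 8.52 in the 6 pairs. These did not overlap, and the level of cow 28 on linseed, 8.99, lay in the linseed range. The change was 0.49 ± 0.08 (1.40-fold, adjusted p = 0.00810), with 0.52 without cows 5 and 15. Smaller rises were seen for NDUFB8 of the same complex (0.27 ± 0.07, adjusted p = 0.0464) and for ATP5F1C, the gamma subunit of ATP synthase (0.43 ± 0.10, adjusted p = 0.0412). ATP5MC1, a subunit of the rotating ring of ATP synthase, changed by 0.89 ± 0.22 (adjusted p = 0.0416). Its levels overlapped, from 5.43 to 6.52 on linseed and from 3.92 to 5.85 on the control diet, and the lowest control levels were those of cows 5 and 15. Without those pairs it changed by 0.59 (adjusted p = 0.357).

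The mitochondrial ribosomal proteins MRPL16 (0.69 ± 0.14, adjusted p = 0.0180) and MRPS14 (0.68 ± 0.15, adjusted p = 0.0253) rose as well, as did ACOT13, a thioesterase that frees fatty acids from acyl-CoA (0.71 ± 0.18, adjusted p = 0.0468). MRPL16 was higher in 5 cows and lower by 0.17 in cow 8. Without cows 5 and 15 MRPL16, MRPS14 and ACOT13 were 0.66, 0.78 and 0.55 (adjusted p = 0.136, 0.0726 and 0.315). ACOT8, a peroxisomal thioesterase, fell (-0.52 ± 0.13, adjusted p = 0.0465). FDXR, the mitochondrial ferredoxin reductase, rose by 0.52 ± 0.11 (adjusted p = 0.0180) with no overlap of levels, at dim mean levels of 2.44 and 1.92.

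PSMD11, a subunit of the proteasome lid, had levels of 8.77 to 9.44 on linseed and 8.20 to 8.73 on the control diet, with no overlap. It rose by 0.62 ± 0.13 (1.54-fold, adjusted p = 0.0196), and its change was 0.48 without cows 5 and 15 (adjusted p = 0.202). The linseed level of cow 28, 8.63, lay within the control range. COPB2, a coat protein of vesicles between the Golgi and the endoplasmic reticulum, rose by 0.42 ± 0.09 (adjusted p = 0.0236) with no overlap, and ERGIC2 of the same route rose by 0.58 ± 0.13 (adjusted p = 0.0210), with 0.39 without cows 5 and 15 (adjusted p = 0.268). P4HA1, a subunit of the enzyme that hydroxylates proline in collagen, rose by 0.55 ± 0.14 (adjusted p = 0.0455).

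The remaining large rises were ADAM12, a membrane metalloprotease (1.13 ± 0.29), SZRD1 (0.93), SH3GLB2 (0.74), PAG18, a gene of the pregnancy-associated glycoprotein family (0.68), ANKRD49 (0.65) and PRKG1, a cyclic GMP-dependent kinase (0.63). ADAM12 levels were 3.65 to 5.37 on linseed and 2.51 to 3.82 on the control diet, so the groups overlapped. PAG18 did not overlap, but its levels were dim, at a mean of 2.23 on linseed and 1.55 on the control diet. Without cows 5 and 15 ADAM12 was 0.92 (adjusted p = 0.295), SZRD1 0.50 (adjusted p = 0.412) and ANKRD49 0.42 (adjusted p = 0.220). SZRD1 was lower on linseed in cow 7, by 0.28. Of the 43 calls that were higher, 19 had a mean level under 4.

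MIF showed the largest fall. It encodes a cytokine that acts on macrophages. Its level on linseed was 2.21 in cow 5, 2.45 in cow 7, 3.19 in cow 8, 4.46 in cow 15, 4.67 in cow 21 and 4.60 in cow 25, and 4.90 in cow 28. On the control diet it was 3.55, 5.62, 5.86, 5.85, 5.29 and 5.95. Each cow was lower on linseed, by 0.62 in cow 21 and by 3.18 in cow 7, while the groups overlapped because the control level of cow 5 was low. The change was -1.76 ± 0.41 (3.38-fold, adjusted p = 0.0302). It was -1.96 without cows 5 and 15 (adjusted p = 0.125), and 0.63 (adjusted p = 0.386) in a fit with array number in place of the cow. Every period I array had a lower number than every period II array, and that fit drops the pairing. It therefore cannot separate array number from period well.

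In the 6 pairs LGALS4 and NHERF2 fell without any overlap of the groups. LGALS4 encodes galectin-4, a lectin of epithelial cells, and had levels of 1.75 to 2.77 on linseed and 3.01 to 4.06 on the control diet, with 2.69 in cow 28. Its change was -1.22 ± 0.21 (2.33-fold, adjusted p = 0.00932). NHERF2, a scaffold for membrane transporters, had levels of 2.54 to 3.33 on linseed and 3.38 to 4.53 on the control diet. It fell by 1.00 ± 0.17 (adjusted p = 0.00810), but its linseed level in cow 28, 3.42, lay within the control range. Both were also called without cows 5 and 15 (-1.30 and -1.05, both with an adjusted p of 0.0455). With the array-name prefix beside the cow they were -1.42 and -1.14 (both with an adjusted p of 0.0372), but prefix and period are poorly separated there. LMO2, a transcription cofactor of blood and endothelial cells, fell by 0.85 ± 0.15 (adjusted p = 0.00932) with no overlap, from 4.92 to 5.59 on linseed against 6.04 to 6.43 on the control diet.

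CDC42EP1, an effector of the small GTPase CDC42, changed by -1.17 ± 0.27 (adjusted p = 0.0269). It had the opposite sign (0.11) with array number in place of the cow, where number and period are poorly separated. The kinase MAPK3 (ERK1) changed by -0.91 ± 0.21 (adjusted p = 0.0277). PDGFB, a growth factor for mesenchymal cells, changed by -0.87 ± 0.22 (adjusted p = 0.0441) with no overlap. TBCB, which folds tubulin, changed by -0.91 ± 0.19 (adjusted p = 0.0180).

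The other large falls were LIN37, a member of a complex that silences cell-cycle genes (-1.29 ± 0.33, adjusted p = 0.0473), the RNA-binding protein RBM42 (-1.17), C1QTNF5 (-1.13), WIPI2, which works in autophagosome formation (-1.10), THAP6 (-1.09) and ECM1, an extracellular matrix protein (-1.06). TSPO, a cholesterol-binding protein of the outer mitochondrial membrane, fell by 0.84 ± 0.19 (adjusted p = 0.0301). MAF1, which restrains RNA polymerase III and lipid synthesis genes, fell by 0.89 ± 0.22 (adjusted p = 0.0412). The lipoxygenase ALOX12E was lower by 0.76 ± 0.17 (adjusted p = 0.0247) at dim levels of 2.24 and 2.99, with changes of -1.45 in cow 5, -1.45 in cow 7 and -1.48 in cow 15 and 0.24 in cow 8. Without cows 5 and 15 LIN37 was -0.89 (adjusted p = 0.363), ECM1 -0.59 (adjusted p = 0.405) and ALOX12E -0.40 (adjusted p = 0.351). ECM1 was higher on linseed by 0.78 in cow 21. With array number in place of the cow, where number and period are poorly separated, RBM42 had the opposite sign (0.15). Of the 95 calls that were lower, 48 had a mean level under 4.

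**Figure D1:**
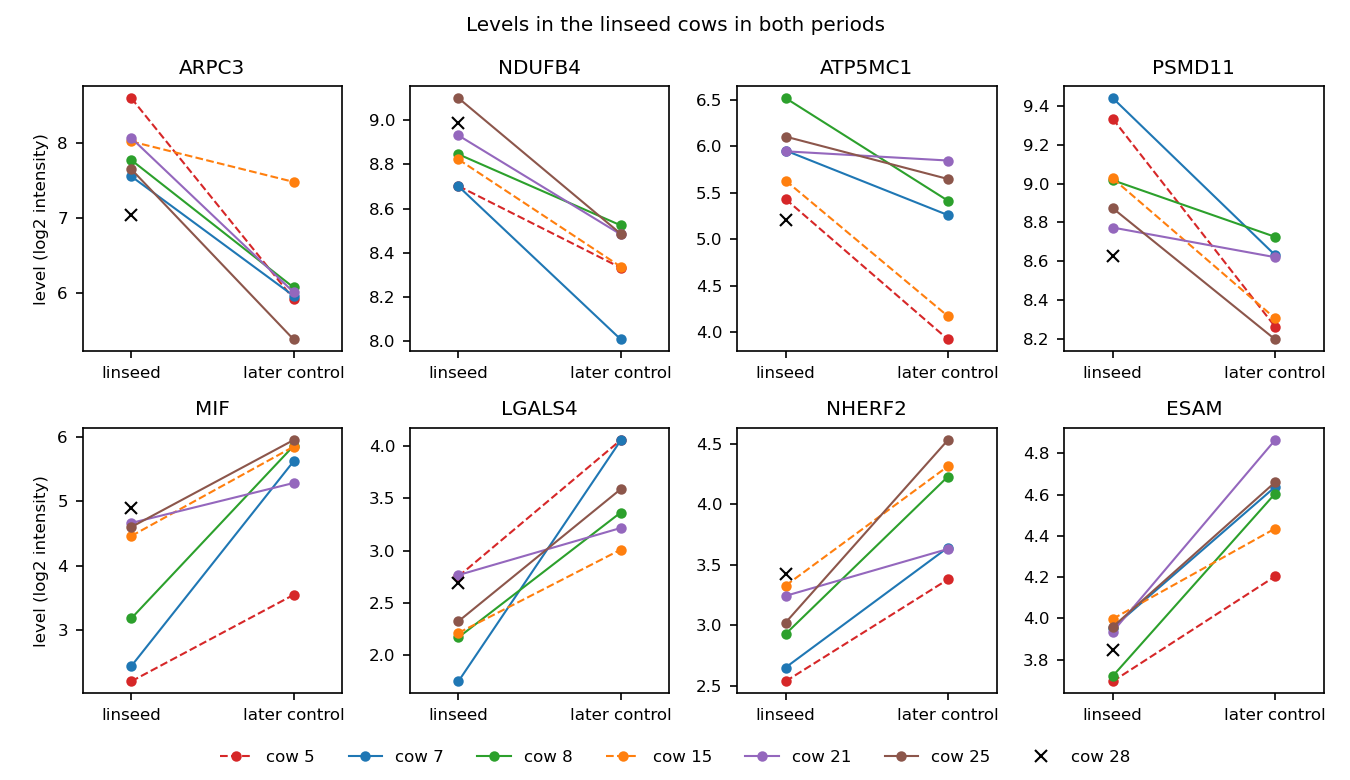
Log2 intensity of 8 genes in the linseed and the later control period, 1 line per cow, with the pairs of cows 5 and 15 dashed and cow 28, which has no later array, as a cross. The lines of ARPC3, NDUFB4 and PSMD11 run down and those of MIF, LGALS4, NHERF2 and ESAM run up in 6 of 6 cows.

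PTGES, the synthase that makes prostaglandin E2, stood just outside the threshold. It had a change of -1.22 (adjusted p = 0.0580) and was lower in each of the 6 cows, by 0.33 in cow 8 and by 1.96 in cow 15. Without cows 5 and 15 the change was -0.93 (adjusted p = 0.358). The mean change of PTGES on the other 3 oils was -0.85 (adjusted p = 9.95e-04).

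The change on linseed was compared with the mean change on the other 3 oils, whose cows share no arrays with the linseed cows. No probe set passed for that difference by limma (0 of 10680, smallest adjusted p = 0.332), with 516 (4.83%) at an unadjusted p under 0.05. Of the 138 calls, 137 had the same sign on the other oils, and 125 were also called there, where 3023 of all probe sets (28.3%) were called from 21 cows. The change was larger on linseed for 122 of the 138. This count follows in part from the choice of probe sets by their change on linseed, and so does the median in the direction of the call, 0.69 on linseed and 0.43 on the other oils. For ARPC3 the change on the other oils was 1.39, with a difference of 0.42 ± 0.28, and for MIF it was -1.99, with a difference of 0.24 ± 0.46. LGALS4 differed more, with -0.55 on the other oils and a difference of -0.67 ± 0.24 (unadjusted p = 0.0100, adjusted p = 0.957).

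The exception in sign was THAP6, a gene of the THAP zinc finger family. On linseed its change was -1.09 ± 0.26 (adjusted p = 0.0363), lower in 6 of 6 cows, and it ranged from -0.080 in cow 7 to -1.57 in cow 8. It was -0.59 (adjusted p = 0.338) with the array-name prefix beside the cow. On the other oils it was 0.38, with 1.00 on soybean oil, where it was higher in 7 of 7 cows, 0.22 on the mixture and -0.089 on rapeseed oil. The difference was -1.47 ± 0.30 (unadjusted p = 3.90e-05, adjusted p = 0.332), which did not pass over all probe sets. ZPR1, a zinc finger protein, had the opposite pattern: it was 0.69 on linseed (adjusted p = 0.0646), with a difference from the other oils of 1.04 ± 0.22 (unadjusted p = 6.22e-05, adjusted p = 0.332).

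**Figure D2:**
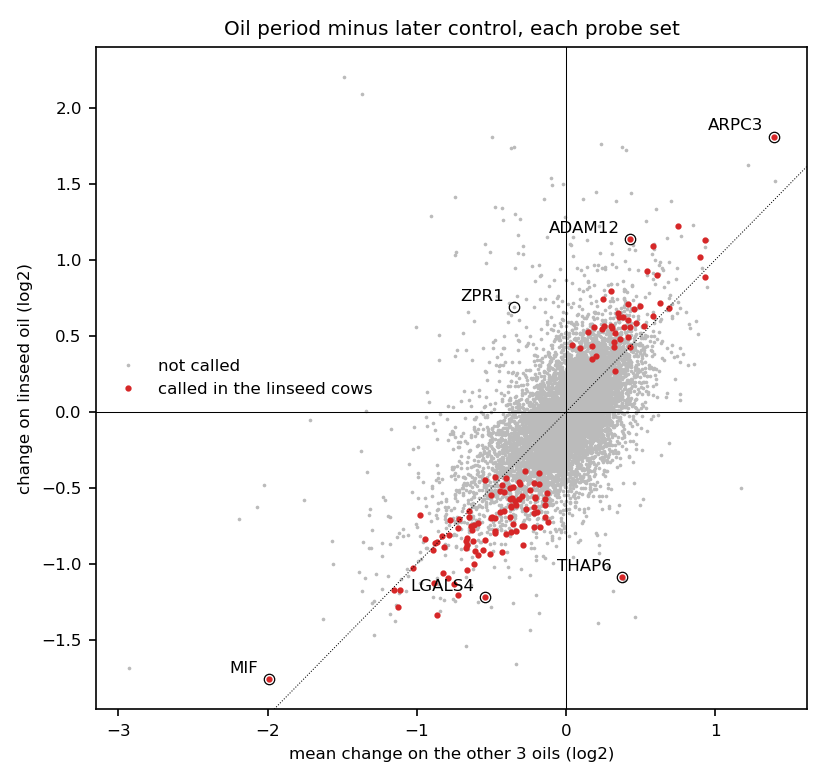
Change on linseed oil (vertical, log2) against the mean change on the other 3 oils (horizontal, log2) for 10680 probe sets, with the 138 called in the linseed cows in red and a dotted line of equal change. Of the red points 137 lie on the same side of 0 on both axes, and THAP6 is the exception, while the circled ZPR1 was not called.

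The extent of change between the periods differed among the 6 cows. In cow 21, 314 probe sets differed more than 2-fold between the periods (2.94% of all), against 446 in cow 25, 602 in cow 8, 665 in cow 7, 1363 in cow 5 and 1404 in cow 15 (13.1%). The median change of the 138 calls in the direction of the call was 0.36 in cow 21, 0.64 in cow 25, 0.66 in cow 5, 0.72 in cow 8, 0.73 in cow 7 and 0.88 in cow 15. Cow 21 had the sign of the call in 126 of them, cow 7 in 136, and cows 15 and 25 in 137 each. The same 6 cows had served to choose the calls, so these medians and counts follow in part from that choice. Across probe sets, the changes of cows 5 and 15 were the most alike of the 15 pairs of cows (r = 0.43), and the other pairs lay between 0.017 and 0.29. Both of these cows have a control array that stood apart.

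Among genes of milk fat, no gene passed the test in the linseed cows, in any of the lists of synthesis and desaturation (15 measured), uptake and binding (15), triacylglycerol assembly (13), the milk fat globule (12) or lipid regulators (17). Their medians were 0.073, 0.38, 0.044, 1.06 and 0.047, and without cows 5 and 15 they were -0.060, 0.12, -0.11, -0.13 and -0.11, against -0.0066 and 0.019 over all probe sets. The control arrays of cows 5 and 15 were low in genes of milk secretion. The mean level of the milk fat globule list was 6.60 in the control array of cow 5 and 5.78 in that of cow 15, against 10.1 to 10.5 in the other 4 control arrays and 8.74 to 10.4 in the linseed arrays. The mean change of that list was 2.13 in cow 5, 3.95 in cow 15 and between -0.29 and 0.24 in the other 4 cows.

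Single genes of the milk fat globule followed the same division. BTN1A1 had control levels of 8.50 in cow 5 and 6.05 in cow 15, and of 12.5 to 12.7 in cows 7, 8, 21 and 25. CIDEA, a droplet protein, had a control level of 2.91 in cow 15 and 5.42 in cow 5. PLIN2 was 6.79 and 6.52 on the control diet in cows 5 and 15, and at least 10.8 in the other 4 cows. Their fitted changes were 1.35, 1.74 and 1.28 (adjusted p = 0.351, 0.336 and 0.206), and without cows 5 and 15 they were -0.15, -0.22 and 0.12. In these bulk samples, fewer cells of a type and less RNA per cell cannot be told apart. The same 2 arrays were lower in the alveolar markers, at mean levels of 12.2 (cow 5) and 11.2 (cow 15) against 13.5 in each of the other 4 control arrays, and their part in these changes was not tested.

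Enzymes that build and desaturate fatty acids varied between cows in both directions. SCD, the desaturase that makes oleic acid, had levels of 11.6 to 12.9 on linseed, and on the control diet 10.6 in cow 5, 8.64 in cow 15 and 12.7 to 12.9 in the other 4. Its change was 0.76 ± 0.50 (adjusted p = 0.422), and -0.06 without those pairs. ACACA, which starts fatty acid synthesis, was lower on linseed by 3.14 in cow 7, 2.12 in cow 8 and 1.43 in cow 25, and changed by 0.28 in cow 21, 1.11 in cow 5 and 2.61 in cow 15. Its mean change was -0.45 ± 0.60 (adjusted p = 0.729), and -1.60 without cows 5 and 15 (adjusted p = 0.297). FADS2, a desaturase of polyunsaturated fatty acids such as ALA, had a change of 0.31 (adjusted p = 0.334) at dim mean levels of 2.21 on linseed and 1.90 on the control diet. ELOVL5, an elongase of the same fatty acids, had -0.51 (adjusted p = 0.407).

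The changes of the 17 regulators ran from -0.45 to 0.34. MBTPS1, the protease that activates SREBP proteins, had -0.45 (adjusted p = 0.0920). It was called lower with the prefix beside the cow (-0.76, adjusted p = 0.0446), where prefix and period are poorly separated. NR1H2, a liver X receptor, had -0.43 (adjusted p = 0.159). SREBF1, a transcription factor of lipid synthesis, had a change of -0.12 ± 0.19 (adjusted p = 0.785) and differed from its change on the other oils (-0.59) by 0.47 (unadjusted p = 0.0391, adjusted p = 0.957). Its mean levels were dim, at 2.80 on linseed and 2.91 on the control diet. PPARG had 0.06, THRSP 0.03 and INSIG1 0.33, with adjusted p-values of 0.930, 0.962 and 0.760, and INSIG1 had 2.06 in cow 15. THRSP was dim, with mean levels of 2.31 on linseed and 2.28 on the control diet. For uptake, the fatty acid transporter CD36 (0.85), the lipase LPL (0.94), the binding proteins FABP3 (1.16) and FABP4 (0.86), and SLC27A6 (1.54) were not called, and without cows 5 and 15 they were 0.11, 0.12, -0.13, 0.15 and 0.27. DGAT1, which completes triacylglycerol, had -0.41 (adjusted p = 0.235) at dim levels, and the lipase PNPLA2 had -0.92 (adjusted p = 0.0963), lower in 6 of 6 cows.

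Respiratory chain genes were the lists with the most calls. In complex I, 2 of 33 measured genes rose and 0 fell, and the list median was 0.18, also 0.18 without cows 5 and 15, while it was 0.26 on the other oils. In complexes II to V, 2 of 33 rose and 0 fell, with a median of 0.12, against the background of 0.403% of probe sets called higher. Of the complex I genes 25 lay above 0 and 8 below. The largest changes in the other direction were NDUFB11 (-0.32) in complex I and UQCRC1 of complex III (-0.80, adjusted p = 0.0771), neither of them called. Without cows 5 and 15, however, UQCRC1 was the 1 call in complexes II to V (-1.23, adjusted p = 0.0455), and ATP5MC1 (adjusted p = 0.357) and ATP5F1C (0.37, adjusted p = 0.238) were not called. UQCRC1 was also called lower with the array-name prefix beside the cow (-1.28, adjusted p = 0.0446), where prefix and period are poorly separated. Fatty acid oxidation (31 measured, median 0.083) and cholesterol synthesis (16 measured, median 0.29) held no call.

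**Figure D3:**
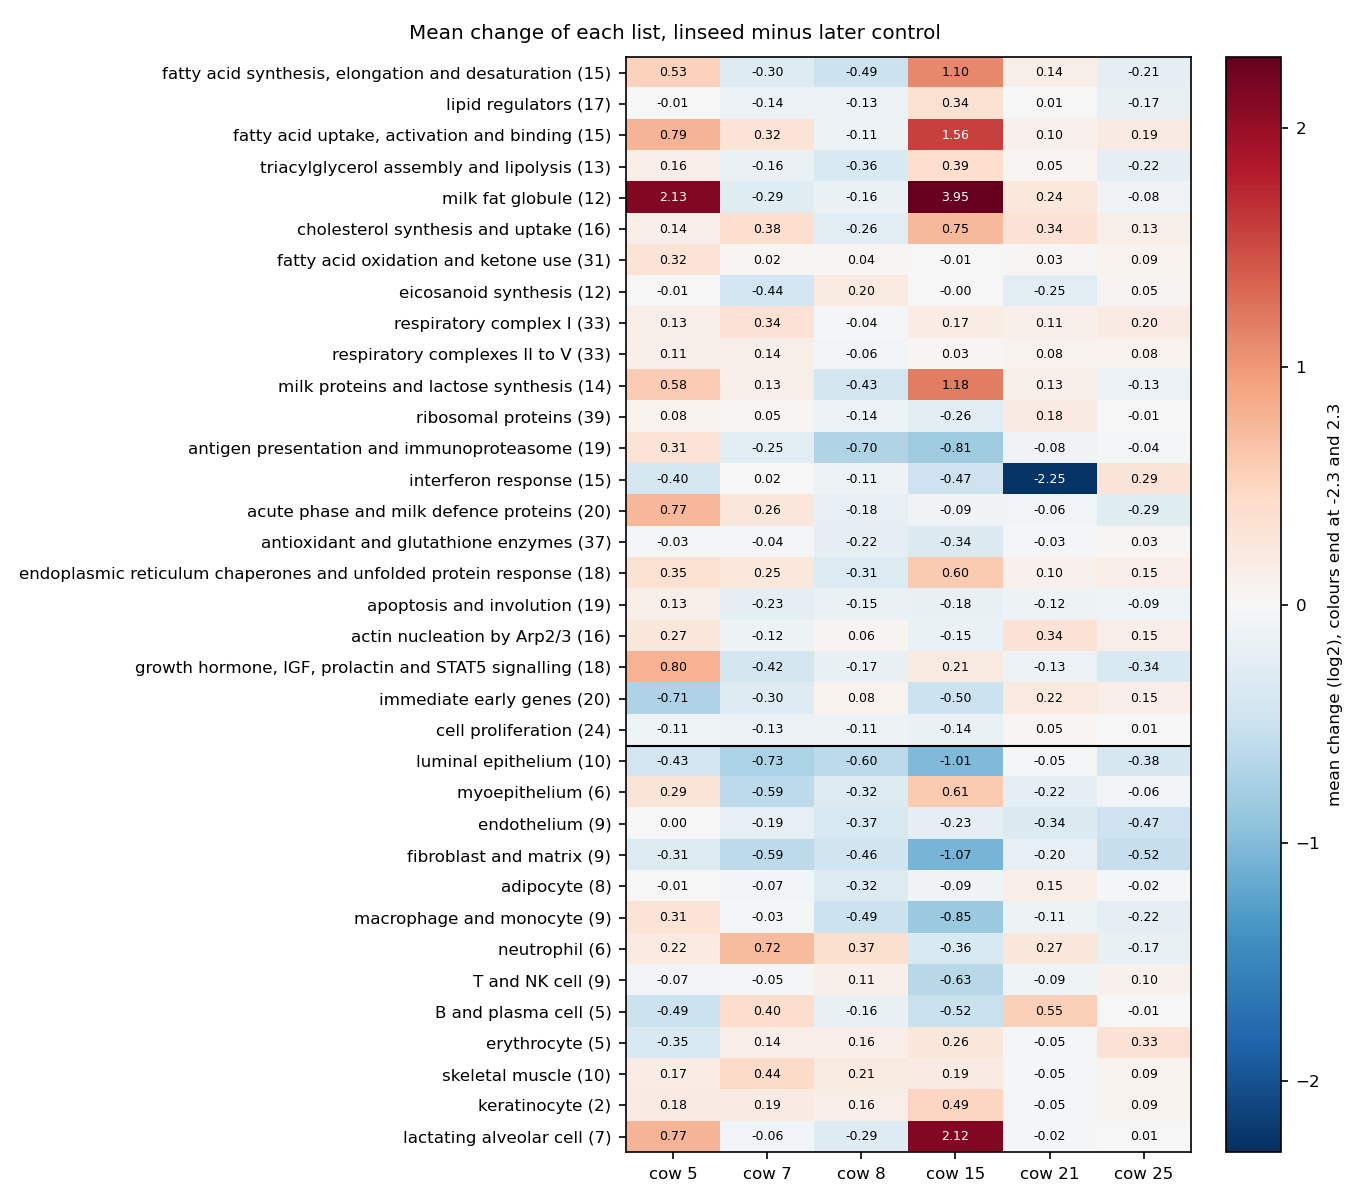
Mean change (linseed minus later control, log2) of 22 gene lists, above the line, and 13 lists of cell type markers, below it, in each of the 6 cows, with the number of measured genes in brackets. The milk fat globule list is high in cows 5 and 15, the interferon list is low in cow 21, and the luminal and fibroblast lists are below 0 in 6 of 6 cows.

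Milk protein and lactose genes (14 measured) held no call and had a median of 0.16, or -0.04 without cows 5 and 15. CSN1S1, a casein gene, was between 12.7 and 13.2 on linseed and LALBA between 13.4 and 13.7, and on the control diet LALBA was 12.9 in cow 5, 11.2 in cow 15 and 13.6 in the other 4. Their changes were 0.066 and 0.47 (adjusted p = 0.845 and 0.212). CSN3, the casein that stabilises micelles, had 0.20 and the antimicrobial protein LTF -0.14. Ribosomal protein genes (39 measured) had no call and a median of -0.04, which became 0.06 after centring. Chaperones of the endoplasmic reticulum (18 measured, median 0.14) and the growth hormone, IGF and prolactin list (18 measured, median 0.044) had none either. GHR, the growth hormone receptor, had the largest change of the latter list, 0.97 (adjusted p = 0.140), and 0.57 without cows 5 and 15 (adjusted p = 0.634). Without those cows the medians of the chaperone list and the growth hormone list were 0.0065 and -0.35.

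Interferon-response genes lay below 0 in 14 of 15 cases, with a median of -0.30, and none passed the test. This rested largely on cow 21. Its mean over the list was -2.25, from a level of 3.06 on linseed to 5.31 on the control diet, while the other 5 control arrays lay between 2.94 and 4.26. In cow 21 ISG15, a ubiquitin-like protein, was 2.24 on linseed and 7.38 on the control diet, RSAD2, which acts against viruses, was 3.34 and 8.39, and the GTPase MX1 was 1.64 and 7.48. Over the 6 cows these genes had changes of -1.20, -1.44 and -1.26 (adjusted p = 0.319, 0.179 and 0.354). The 42 arrays of the other diets ranged from 2.96 to 6.13 in the list mean, so the level of cow 21 was within the range of the series.

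Genes of antigen presentation (19 measured) had a median of -0.26 and no call. PSMB8, a subunit of the immunoproteasome, had a change of -1.47 (adjusted p = 0.0932) and CD74, the class II invariant chain, -1.06 (adjusted p = 0.175), and both were higher on linseed in cow 21 only, by 0.12 and 0.44. Of 20 acute phase and milk defence genes, MIF fell and none rose. SAA3 and CHI3L1, an acute phase gene and a secreted glycoprotein gene, varied over a wide range, from 2.55 to 11.8 and from 3.04 to 10.9 on linseed. Their changes were -0.63 ± 1.14 and -0.71 ± 1.10, in both directions among the cows. Apoptosis and involution (19 measured, median -0.05), antioxidant enzymes (37, median -0.05), eicosanoid synthesis (12, median -0.12), immediate early genes (20, median -0.19) and cell proliferation (24, median -0.09) held no call. Without cows 5 and 15 their medians were -0.08, -0.02, -0.07, 0.03 and -0.06 in the same order. The medians of apoptosis and antioxidant enzymes turned positive after centring (0.04 and 0.05).

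**Figure D4:**
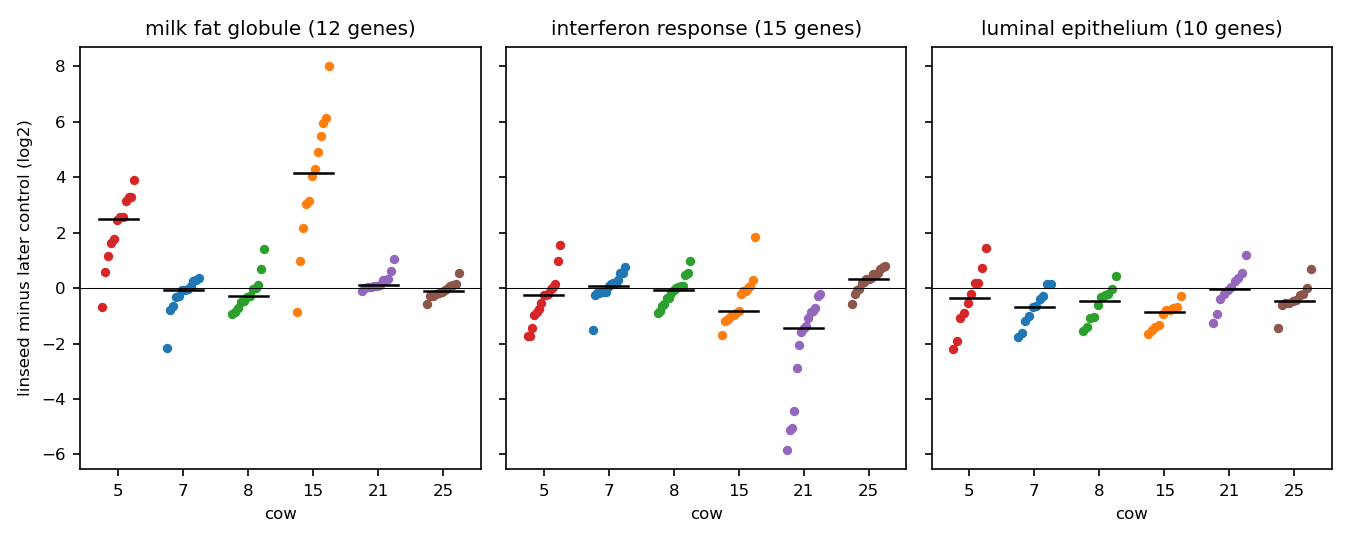
Change of each gene (linseed minus later control, log2) of the milk fat globule, interferon and luminal epithelium lists in each cow, with a bar at the cow's median. Milk fat globule genes are spread upward in cows 5 and 15, and interferon genes downward in cow 21, where MX1 lies lowest.

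Among the 13 lists of cell type markers, with 2 to 10 measured genes each, 1 gene was called. Of all probe sets 1.29% were called, so this count is not read as a result about endothelial cells. ESAM, an adhesion molecule of endothelial cells, had levels of 3.70 to 4.00 on linseed and 4.20 to 4.86 on the control diet, with no overlap and with 3.85 in cow 28. It fell by 0.69 ± 0.14 (1.61-fold, adjusted p = 0.0178), and by 0.80 without cows 5 and 15 (adjusted p = 0.0455). The other 8 endothelial markers did not pass, among them CDH5 (-0.51), CLDN5 (-0.45) and PECAM1 (0.24), and the list median was -0.26.

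Luminal epithelial markers lay below 0 in 10 of 10 cases, with a median of -0.62 and a lower list mean in 6 of 6 cows, but none passed the test. KRT7 had -1.09, CLDN3 -0.78, KRT19 -0.72 and ELF3 -0.56 (adjusted p = 0.0915, 0.0612, 0.130 and 0.0693). The list median was -0.38 without cows 5 and 15, -0.53 after centring, and -0.40 on the other oils. In the control array of cow 15, in which genes of milk secretion were low, the luminal list mean was 8.11 and the fibroblast list mean 9.70, each the highest of the 13 linseed arrays. Fibroblast and matrix genes had a median of -0.47, with 8 of 9 below 0, no call and a lower list mean in 6 of 6 cows, and COL1A1, a chain of type I collagen, had -1.33 (adjusted p = 0.165).

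Markers of other cells the samples could hold showed no call. The list medians were 0.07 for myoepithelium, -0.03 for adipocytes, -0.30 for macrophages and monocytes, 0.24 for neutrophils, -0.05 for T and NK cells, -0.04 for B and plasma cells, 0.15 for erythrocytes, 0.15 for skeletal muscle and 0.18 for keratinocytes. After centring, those of adipocytes, T and NK cells, and B and plasma cells were above 0, at 0.06, 0.05 and 0.05. Muscle, erythrocyte and keratinocyte markers were dim, with mean levels under 2.4 in each of the 13 arrays. Neutrophil markers were dim too, at mean levels of 2.88 on linseed and 2.71 on the control diet. A mean level under 4 was found for 6 of 6 neutrophil, 8 of 9 T and NK cell, 5 of 8 adipocyte and 3 of 5 B and plasma cell markers.

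**Figure D5:**
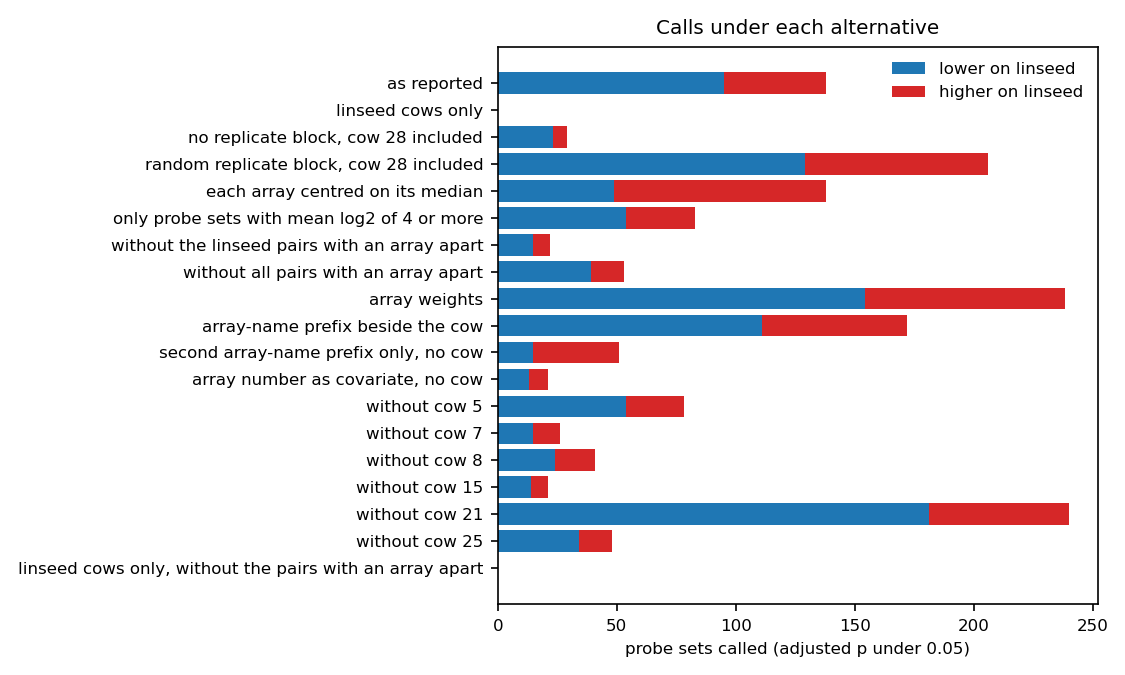
Number of probe sets called in the linseed cows (adjusted p under 0.05), lower in blue and higher in red, as reported and under each alternative, with "replicate block" for the cow as a block. The bars run from 0 for the linseed cows alone to 240 without cow 21, against 138 as reported. The bar for the second prefix alone rests on 1 linseed array.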

How the data were processed

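Mammary gland RNA (2 micrograms) was labelled with biotin and hybridised to Affymetrix bovine arrays of 1 colour, per the labels. The deposited values are probe set intensities on a linear scale, which the authors made with RMA and GCRMA, per the submitters' processing notes. Their versions, and which step each served, are not given in the sources used here. The values were taken to log2 and not scaled further. Of 11495 probe sets, 112 controls were left out and 703 with values identical to another were merged, which left 10680. Symbols from a RefSeq table named 6649 of them (6636 genes), 4029 had none and 2 had several. Where probe sets shared a gene, that with the highest mean over all arrays stood for it.

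Groups came from the cow, the period and the diet in the labels. With limma 3.58.1 in R 4.3.3, 54 arrays of 27 cows were fitted with the cow as a block and a period effect for each diet, so the cow pairs the arrays as the same animal. The other diets' cows enter the spread and the comparison between oils only. Tests were two-sided, adjusted by the Benjamini-Hochberg method, and calls were made at an adjusted p under 0.05. The fit was tested on simulated data. The number of arrays limits the precision, and cow 28 is left out of the fit.

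The cows, the 22 gene lists, the 13 marker lists and the alternatives were chosen with earlier results of these data known. Named genes are the 12 largest rises and the 12 largest falls (10 of them reported) among called genes, changed one way in at least 5 cows, the 6 with the smallest p for linseed against the other oils, up to 4 per list by p, and a set of milk genes. Other called genes, and members that moved against their list, were named after their values were seen. Some genes are not reported here.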

Additional observations from a re-analysis of the deposited data

Results flagged for a closer look

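Single cows far from the other 5 were looked for in 161 sets of 6 changes, and 15 stood out; chance alone puts about 1 in 20 such sets there. In cow 15, whose control array stood apart, LALBA (2.34), SCD (3.78), CSN1S1 (0.80) and the mean of the lipid regulators (0.34) were far above the other cows. GPX3, a secreted glutathione peroxidase (-4.79), ITIH4 (-2.23), MCM5 (-0.78) and the mean of the T and NK cell markers (-0.63) were far below them in the same cow. In cow 5 RPS9 (1.08) and the mean of fatty acid oxidation (0.32) were high. In cow 21 ISG15 (-5.14), RSAD2 (-5.04) and the mean of the interferon list (-2.25) were low, and CDC42EP1 (0.29) was higher on linseed where the other cows were lower. MRPL16 in cow 8 (-0.17) was lower where the other cows were higher.

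THAP6 (-1.09 on linseed) moved in opposite directions on linseed and soybean oil, lower in each of the 6 linseed cows and higher in each of the 7 soybean cows, among 378 pairs of diets and genes examined. The difference between these 2 oils was not tested; against the mean of the other 3 oils it was -1.47 (adjusted p = 0.332).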

How the results depend on the processing

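The number of calls depended on the fit. Against 138 as reported, limma called 0 in the linseed cows alone (1742 at an unadjusted p under 0.05), also 0 there without the pairs of cows 5 and 15, an alternative chosen after seeing the data (1529). With no replicate block, which lets cow 28 in, it called 29 (6 higher, 23 lower), and 206 with a random replicate block. It called 83 among probe sets with a mean log2 of 4 or more, where fewer were tested, 22 without the linseed pairs with an array apart, 53 without all such pairs and 238 with array weights. It called 172 with the array-name prefix beside the cow, 51 on the second prefix alone (36 higher, 15 lower, 6 shared) and 21 with array number in place of the cow (2 shared). Leaving out 1 cow gave 21 (cow 15) to 240 (cow 21), with 26 without cow 7. The cause was not tested. With array number, MIF (0.63), RBM42 (0.15) and CDC42EP1 (0.11) took the opposite sign. Array numbers were all lower in period I than in period II, so this fit cannot separate number from period well. Of the 25 named genes that were called, 22 were also called after centring, 9 with the prefix and 6 without the linseed pairs with an array apart. The difference from the other oils gave 0 calls in each alternative that could fit it, and the linseed cows alone cannot. List medians moved by more than the spread over cows for 8 of 22 lists with array number, 6 with the prefix, 3 on the second prefix alone, 2 after centring and 1 in the filtered set. The median level of the tested probe sets was 3.34, where dim intensities limit what a change can show.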

Other observations

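Some of the called genes are in none of the lists. SNRPD3, a core protein of the splicing particles, rose by 0.48 ± 0.09 (adjusted p = 0.0143) and SNW1 by 0.56 ± 0.14 (adjusted p = 0.0464), while CWC15, of the spliceosome (-0.53 ± 0.12, adjusted p = 0.0247), HNRNPR (-0.53 ± 0.11, adjusted p = 0.0209), HNRNPUL1 (-0.86 ± 0.22, adjusted p = 0.0463) and TXNL4A (-0.47 ± 0.10, adjusted p = 0.0201) fell. Falls were also seen for the ubiquitin ligase STUB1 (-0.70 ± 0.18, adjusted p = 0.0455) and for VPS4A, which completes membrane scission (-0.66 ± 0.17, adjusted p = 0.0460). FLCN, which acts in nutrient sensing at the lysosome, fell by 0.63 ± 0.14 (adjusted p = 0.0269), and CAVIN3, a caveolar coat protein, by 0.73 ± 0.17 (adjusted p = 0.0322). These genes were picked after their values were seen.

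PKD2, a cation channel of cilia and the endoplasmic reticulum, fell on linseed by 0.69 ± 0.15 (adjusted p = 0.0201), with -0.14 on the other oils and a difference of -0.55 ± 0.17 (unadjusted p = 0.00298, adjusted p = 0.957). EGR1, an immediate early transcription factor, was higher on linseed in 6 of 6 cows, from 0.49 in cow 21 to 1.44 in cow 15. Its change of 0.84 ± 0.25 did not pass (adjusted p = 0.0825), at dim mean levels of 3.04 on linseed and 2.20 on the control diet. Of the 20 measured immediate early genes, 5 lay above 0 and 15 below, among the latter ZFP36 (-0.80), JUNB (-0.61) and JUND (-0.42), none of them called. The list mean was higher in 3 cows and lower in 3. Without cows 5 and 15 the list median was 0.03, with EGR1 at 0.66, ZFP36 at -0.50, JUNB at -0.33 and JUND at -0.18.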
